A study of Homo sapiens with 6 samples.

Results

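The nuclear pore complex is built from nucleoporins, and 32 genes for its subunits and close partners were followed here, out of 20263 genes listed in the count table. They were chosen by the known place of their products in the pore: 7 on the cytoplasmic face, 9 in the outer ring scaffold, 5 in the inner ring scaffold, 3 in the central channel, 4 in the nuclear basket and 4 in the membrane ring. The choice started from RANBP2 and TPR, which had been seen to be low in 1 library, so for those 2 genes the siNC values are a description with no test. All 32 genes passed the low count filter, among 14306 genes tested, although NUP210 passed through its highest libraries only.

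RNA was sequenced from U118 cells at day 2. U118 is an established human malignant glioma line, called astroblastoma in the labels. The groups were RIPK2 knockdown by siRNA (siRIPK2_1 to siRIPK2_4, 4 libraries), a control siRNA (siNC, 1 library) and wild-type cells (WT, 1 library). The labels do not say whether the 4 siRIPK2 libraries are different siRNAs, separate cultures or repeats, so the p-values reflect no more than how these libraries spread, and that spread may be technical. WT is taken as untransfected.

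The pore is a channel through the nuclear envelope that carries all large traffic between nucleus and cytoplasm. A ring scaffold is held in the membrane by a few transmembrane proteins, the channel is filled by nucleoporins with phenylalanine-glycine (FG) repeats, cytoplasmic filaments receive exported cargo and messenger RNA, and a basket faces the chromatin. In dividing cells the pore comes apart in mitosis and is rebuilt on the chromosomes, and tumour lines in culture need new pores in every cycle.

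RANBP2 (ENSG00000153201, also known as NUP358) is the main protein of the cytoplasmic filaments; it binds Ran and acts as a SUMO ligase. TPR (ENSG00000047410) is the coiled-coil protein that forms the basket filaments. RANBP2 lies on chromosome 2 from 108719481 to 108785811, plus strand, and TPR on chromosome 1 from 186311652 to 186375693, minus strand (GRCh38, GENCODE release 29). Their promoter windows are printed because these 2 genes shared the low siNC level and the windows let a reader see what the 2 starts have in common. Each runs from 250 bases before to 50 bases after the annotated start, 5′ to 3′ on the gene's strand, from RefSeq on GRCh38.p14. RANBP2 is at chr2:108719232-108719531, plus strand, with the capitals marking both copies of a direct repeat of 32 bases. TPR is at chr1:186375204-186375503, minus strand, with the capitals marking matches to the motifs searched. Its RefSeq start lies inside the gene as GENCODE draws it, so the TPR window is within the GENCODE gene and not before it.
RANBP2: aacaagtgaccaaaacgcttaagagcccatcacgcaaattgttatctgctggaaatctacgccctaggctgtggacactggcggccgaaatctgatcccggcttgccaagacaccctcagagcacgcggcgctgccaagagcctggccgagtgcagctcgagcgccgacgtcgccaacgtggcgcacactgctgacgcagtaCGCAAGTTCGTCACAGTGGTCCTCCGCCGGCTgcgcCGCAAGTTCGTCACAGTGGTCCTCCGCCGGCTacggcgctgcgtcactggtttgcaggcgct
TPR: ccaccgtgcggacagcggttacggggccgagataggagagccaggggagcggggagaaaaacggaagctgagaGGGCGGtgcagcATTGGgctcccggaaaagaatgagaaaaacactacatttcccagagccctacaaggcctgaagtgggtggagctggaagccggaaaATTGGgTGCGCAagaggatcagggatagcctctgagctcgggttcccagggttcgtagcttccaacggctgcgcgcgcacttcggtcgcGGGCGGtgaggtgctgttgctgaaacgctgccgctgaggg

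The RANBP2 window held a 32-base run at position 203 that recurred at position 239, counted from 1 at its 5′ end, and a repeat at least as long was found in 268 of 35116 RefSeq windows (0.763%). It held none of 4 motifs searched on both strands: the CCAAT box (CCAAT), the GC box (GGGCGG), an ETS core (CCGGAAG) and the centre of the NRF1 motif (TGCGCA). No motif contains another, though matches could overlap. The TPR window held the CCAAT box at positions 86 and 172, the GC box at positions 74 and 261 and the NRF1 centre at position 178. The pair therefore had none of these letters in common, which says nothing about the factors themselves. Windows were found for 28 of the 32 genes. A pore gene was counted if any of its windows held the motif, whereas the share over all windows counts single windows. The shares are therefore not on the same unit. The ETS core was in 12 of the 28 (42.9%) and in 10.3% of all windows, the CCAAT box in 11 (39.3%) and in 34.6%, the GC box in 15 (53.6%) and in 45.0%, and the NRF1 centre in 3 (10.7%) and in 8.24%. The windows of the pore genes had a median GC content of 64.2%, against 58.7% over all windows.

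The total count ranged from 33540619 to 45309423 per library. CPM is the count scaled by the library total after TMM normalisation, and the 3 counts used as a floor came to between 0.0664 and 0.0935 CPM, for counting error only. RIPK2, the targeted gene, had 3.86, 11.9, 6.27 and 4.32 CPM in the siRIPK2 libraries, 43.4 CPM in siNC and 56.8 CPM in WT, so each library matched its label. Among markers of the line, VIM and CD44 were at 3813 CPM or more and at 224 CPM or more in every library, while NES was at 19.5 to 73.1 CPM in siRIPK2, 18.5 CPM in siNC and 69.1 CPM in WT. SOX2, a neural progenitor factor, was at 0.908 CPM or more in siRIPK2, highest in siRIPK2_1, with 0.748 CPM in siNC and 2.58 CPM in WT. NES and SOX2 were thus lowest in siNC, as were RANBP2, TPR, GLE1 and AHCTF1, and their part in those values was not tested. The markers of the line as a list were not low there. Of the 7 tested, 2 were lowest in siNC, beside 17.6% of all genes. Their median log2 fold change in siNC against the other 5 libraries was 0.38. The glial markers GFAP, S100B, OLIG2 and AQP4 were at 1.09 CPM or less. PTPRC and AIF1 of immune cells, EPCAM of epithelium and RBFOX3 of neurons were at 0.170 CPM or less in every library. These are bulk samples, in which fewer cells of a type and less RNA per cell cannot be told apart.

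Which pore genes shared the low siNC level was examined first. RANBP2 and TPR were at 30.0% and 29.1% of the mean of the other 5 libraries in siNC, GLE1 was at 41.6% and AHCTF1 at 51.2%. The other 28 genes showed no drop of this size, and the next lowest in siNC were POM121 and NUP35. A positive log2 fold change in siNC was found for 22 of the 32 genes, a count that includes NUP210 with its few counts. Low genes were found on the cytoplasmic face (RANBP2, GLE1), in the basket (TPR) and in the outer ring (AHCTF1), and in each of these modules the remaining genes were near or above their level elsewhere.

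RANBP2 had 155, 124.5, 152 and 126 CPM in siRIPK2_1 to siRIPK2_4, 40.3 CPM in siNC and 115 CPM in WT. siNC was thus at 30.0% of the mean of the other 5 libraries, 134.5 ± 17.9 CPM (SD, n = 5), and below each of them. TPR had 222, 167, 178 and 163 CPM in the siRIPK2 libraries, 52.2 CPM in siNC and 165 CPM in WT. Its siNC level was 29.1% of the mean of the other 5, and again no other library came near it. As fitted, siNC stood at a log2 fold change of -1.74 for RANBP2 and -1.78 for TPR against the other 5.

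GLE1 (ENSG00000119392, chromosome 9, 128504700 to 128542288, plus strand) stimulates the helicase DDX19 in the last step of messenger RNA export, on the cytoplasmic face where RANBP2 sits. GLE1 had 60.5, 62.4, 67.2 and 68.0 CPM in the siRIPK2 libraries, 27.3 CPM in siNC and 69.7 CPM in WT. The 5 other libraries lay close together and siNC stood far below them. Its log2 fold change in siNC against the other 5 was -1.26 (SE 0.258), with an unadjusted p of 0.00104 and an adjusted p of 0.449 in edgeR's quasi-likelihood test. DESeq2 gave an adjusted p of 5.66e-04 for the same difference, and over all alternatives the adjusted p of GLE1 ranged from 5.66e-04 to 0.974.

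AHCTF1 (ENSG00000153207, also known as ELYS, chromosome 1, 246839098 to 246931967, minus strand) binds chromatin and brings the outer ring to it when pores are rebuilt after mitosis. AHCTF1 had 92.5, 62.9, 107 and 88.8 CPM in the siRIPK2 libraries, 44.0 CPM in siNC and 79.5 CPM in WT. siNC was again the lowest library, but siRIPK2_2 lay between it and the rest. The log2 fold change in siNC against the other 5 was -0.97 (SE 0.330, unadjusted p = 0.0181, adjusted p = 0.659 in edgeR). With offsets for transcript length and GC content it was -0.76 (unadjusted p = 0.0658 in edgeR), which is no longer under 0.05.

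**Figure D1:**
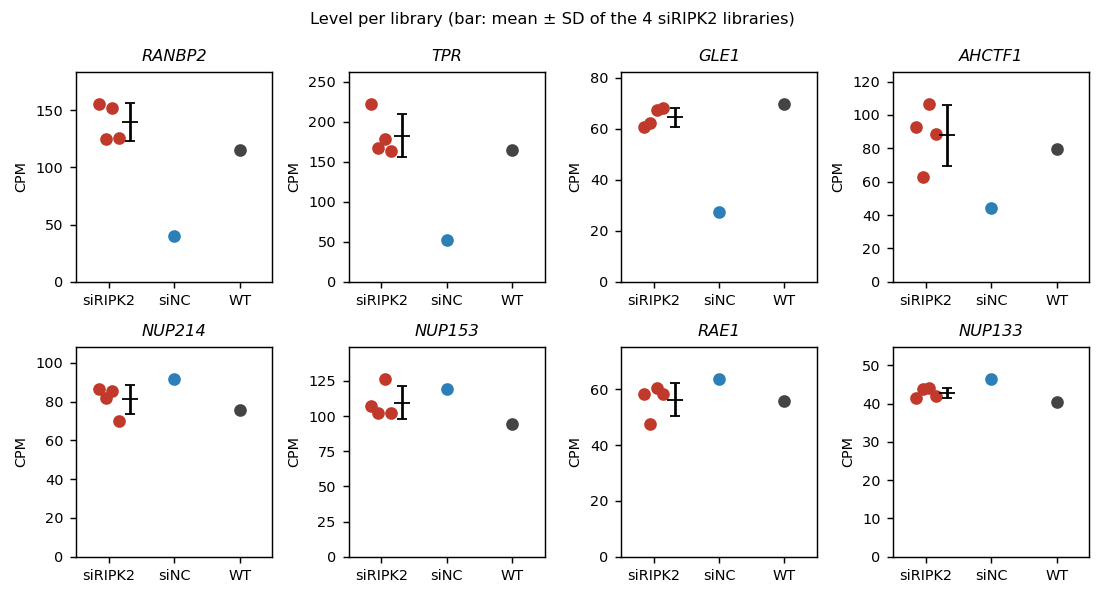
Level in CPM (y axis, from 0) of 8 pore genes in the siRIPK2, siNC and WT libraries; each point is 1 library and the bar is the mean ± SD of the 4 siRIPK2 libraries. RANBP2, TPR, GLE1 and AHCTF1 are lowest in siNC, at 40.3, 52.2, 27.3 and 44.0 CPM, while NUP214, NUP153, RAE1 and NUP133 in siNC are above the mean of the siRIPK2 libraries.

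No gene of the 14306 passed an adjusted p of 0.05 in siNC against the other 5 libraries in edgeR (0.0%), and so 0 of the 32 pore genes did. Without adjustment, 663 genes were lower in siNC at p under 0.05 (4.63%) and 201 were higher (1.41%). Of the 30 pore genes other than RANBP2 and TPR, 2 were lower (GLE1 and AHCTF1) and 0 higher. DESeq2 called 145 genes (1.01%), among them GLE1 as the 1 of these 30. A level in siNC at or under 0.5 of the mean of the other 5 was found for 1031 genes (7.21%) and for 1 of the 30, GLE1. Just outside that limit was AHCTF1 at 51.2%. The counts at the unadjusted p and at 0.5 of the mean were close to the shares over all genes.

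siNC held the lowest level of 6 of the 32 pore genes: RANBP2, GLE1, AHCTF1, NUP35, TPR and POM121. The same was true of 17.6% of all genes tested. Without RANBP2 and TPR it was 4 of 30, a share near the background. Leaving out NUP210, whose few counts fell mostly in siRIPK2_1 and siNC, it held the highest level of 5 of 31, NUP214, RAE1, NUP133, NUP85 and SENP2, against 15.2% of all genes. The median log2 fold change in siNC against the other 5 was 0.11 over the 32 genes and 0.13 over the 30 without RANBP2 and TPR, beside -0.01 over all genes. The typical pore gene was therefore not low in siNC.

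**Figure D2:**
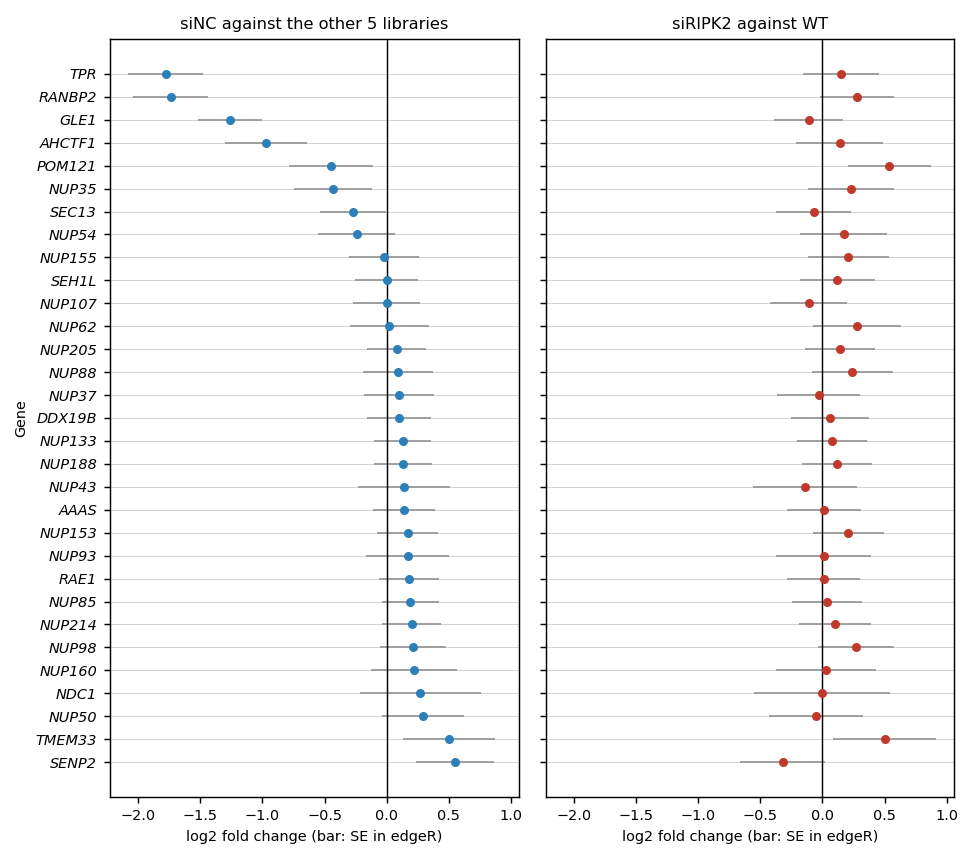
Log2 fold change (x axis) of 31 pore genes (y axis, sorted by the left panel) in siNC against the other 5 libraries (left) and in siRIPK2 against WT (right); bars are the standard error in edgeR, and NUP210 is left out for its low counts. TPR, RANBP2, GLE1 and AHCTF1 stand apart at -1.78 to -0.97 on the left, and no gene stands apart on the right.

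Within the cytoplasmic face, the partners of the low genes did not follow them. NUP214, the FG nucleoporin that anchors the export helicase, had 86.7, 81.9, 85.6 and 70.2 CPM in the siRIPK2 libraries, 91.7 CPM in siNC and 75.8 CPM in WT. Its siNC level was the highest of the 6. DDX19B, the helicase that GLE1 stimulates, was at 22.2 to 27.3 CPM in siRIPK2, 26.2 CPM in siNC and 23.6 CPM in WT, which overlap. NUP88, the partner of NUP214, AAAS (aladin) and RAE1, which carries messenger RNA export with NUP98, had log2 fold changes of 0.09, 0.14 and 0.18 in siNC against the other 5, and none had an unadjusted p under 0.05.

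The basket showed the same contrast between TPR and its neighbours. NUP153, the FG nucleoporin that tethers TPR to the pore, was at 102 to 126 CPM in the siRIPK2 libraries, 119.5 CPM in siNC and 94.4 CPM in WT. SENP2, a SUMO protease docked at the basket, had 42.5, 33.9, 39.8 and 26.1 CPM in the siRIPK2 libraries, 54.6 CPM in siNC and 44.5 CPM in WT. All 4 siRIPK2 libraries were below both controls for SENP2, at log2 fold changes of -0.62 (SE 0.339, unadjusted p = 0.107 in edgeR) against siNC and -0.32 (SE 0.345, unadjusted p = 0.376 in edgeR) against WT. NUP50, a cofactor of importin alpha, ranged from 155 to 266 CPM in siRIPK2, with 251 CPM in siNC and 211 CPM in WT.

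In the outer ring scaffold, the Y-shaped complex that coats the membrane on both sides, 8 of the 9 genes had siNC levels inside the range of the other 5 libraries or above it. NUP160 had 94.7, 63.4, 67.5 and 46.4 CPM in the siRIPK2 libraries, 78.8 CPM in siNC and 66.5 CPM in WT, the largest positive change of the ring at 0.22. NUP133 was the steadiest, at 41.5, 43.9, 44.0 and 42.1 CPM in the siRIPK2 libraries, 46.5 CPM in siNC and 40.5 CPM in WT. NUP107, NUP85, NUP37, NUP43 and SEH1L had log2 fold changes from -0.00 to 0.19 in siNC against the other 5. SEC13, which also serves in the COPII coat, had -0.27, and its siNC level lay inside the range of the siRIPK2 libraries, 116 to 163 CPM.

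The inner ring scaffold lines the middle of the pore. NUP35, which helps to fasten it to the membrane, had 26.3, 30.2, 27.5 and 20.1 CPM in the siRIPK2 libraries, 18.8 CPM in siNC and 22.2 CPM in WT. siNC was lowest by a small margin below siRIPK2_4 (log2 fold change -0.43, SE 0.312, unadjusted p = 0.206 in edgeR). NUP93, the linker that holds the ring and the channel together, had 117, 61.7, 106 and 106 CPM in the siRIPK2 libraries, 109.6 CPM in siNC and 96.9 CPM in WT. The 1 low library for NUP93 was siRIPK2_2. NUP155, NUP188 and NUP205 had log2 fold changes of -0.02, 0.13 and 0.08 in siNC against the other 5.

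The central channel holds the FG repeats that bind transport receptors. NUP54 had 38.9, 30.7, 46.2 and 48.0 CPM in the siRIPK2 libraries, 33.9 CPM in siNC and 36.5 CPM in WT. NUP98 had 157, 125, 159.5 and 175.5 CPM in the siRIPK2 libraries, 173 CPM in siNC and 128 CPM in WT. For both genes the siRIPK2 libraries overlapped siNC and WT. NUP62 was at 126 to 199 CPM in siRIPK2, 151.5 CPM in siNC and 127 CPM in WT.

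In the membrane ring, POM121, a transmembrane nucleoporin, had 76.9, 54.5, 77.5 and 62.4 CPM in the siRIPK2 libraries, 46.6 CPM in siNC and 46.8 CPM in WT. Both controls lay below all 4 siRIPK2 libraries, so the low siNC level of POM121 was shared by WT and differs from the pattern of RANBP2 and TPR. TMEM33, a membrane protein of the endoplasmic reticulum and nuclear envelope, had 30.6, 21.8, 23.7 and 39.5 CPM in siRIPK2, 38.4 CPM in siNC and 20.4 CPM in WT. NDC1, which anchors the scaffold in the membrane, was at 111, 35.8, 93.1 and 96.9 CPM in the siRIPK2 libraries, 102 CPM in siNC and 84.1 CPM in WT. NUP210 was barely detected, with 11, 2, 4 and 5 counts in the siRIPK2 libraries, 10 counts in siNC and 2 counts in WT, and gets no fold change.

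**Figure D3:**
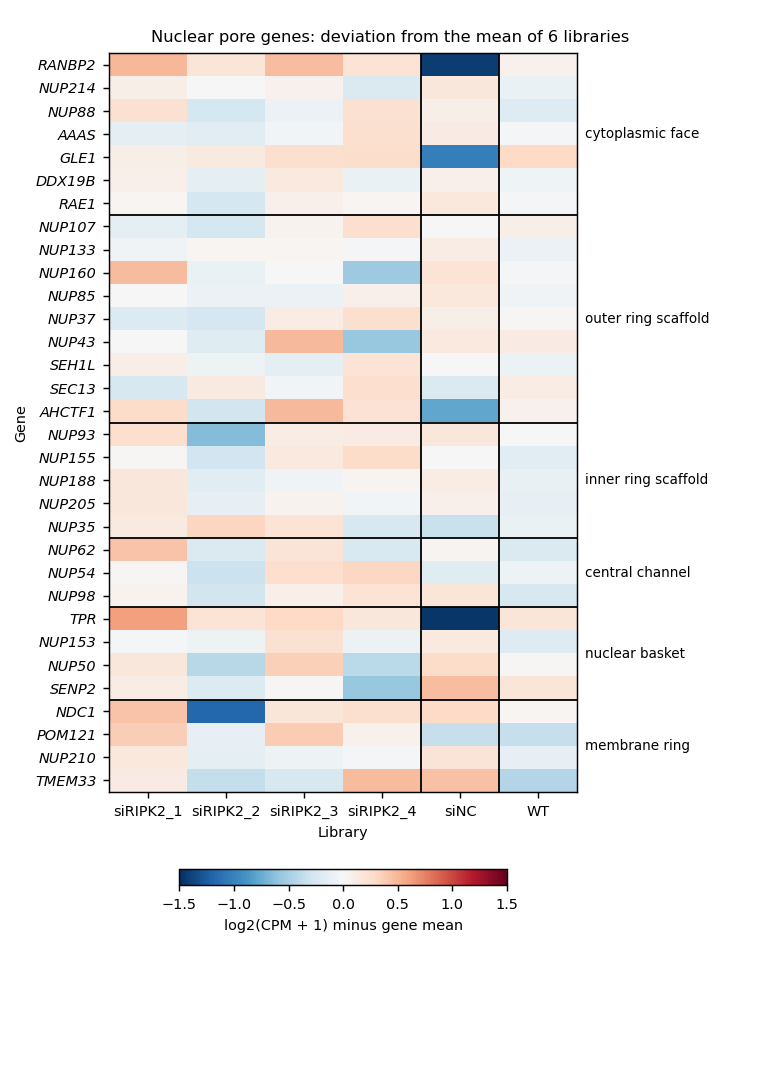
Deviation of log2(CPM + 1) from the gene's mean over 6 libraries (colour) for the 32 pore genes (rows, by place in the pore) in the siRIPK2, siNC and WT libraries (columns). In the siNC column RANBP2, GLE1, AHCTF1 and TPR are blue and most others are pale or red, while the siRIPK2_2 column is blue for many genes, with NDC1 lowest at 35.8 CPM.

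Levels can be compared between the genes only per length, taken here as the summed length of all annotated exons of a gene. That length can be well above the longest transcript, at 5446 against 2374 bases for SEC13 and 10481 against 5206 for SEH1L. The order below therefore depends on the length used. On the TPM scale, as a median over the 6 libraries, the most abundant were NUP50 at 100.5 TPM, SEC13 at 96.9 TPM, NUP62 at 85.5 TPM and NUP188 at 83.6 TPM. Over single libraries NUP50 ranged from 68.6 to 119 TPM and NUP188 from 79.8 to 99.4 TPM, so neighbours in this order overlapped. GLE1 was at 70.3 TPM, TPR at 52.1 TPM, RANBP2 at 38.8 TPM and AHCTF1 at 32.6 TPM, in the upper, middle and lower parts of the order. Leaving NUP210 aside, the lowest were TMEM33 at 12.6 TPM and SEH1L at 15.1 TPM.

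RANBP2, TPR and AHCTF1 have the 3 longest transcripts of the set, and all are poor in GC. The longest annotated transcript is 11711 bases for RANBP2 (GC 39.2%), 9708 for TPR (40.1%) and 8892 for AHCTF1 (40.3%), against 3321 for GLE1 (49.1%). Over the whole table, genes with a transcript of 8000 bases or more and a GC content under 42% were also lower in siNC: their median log2 fold change was -0.34 (n = 542), siNC was the lowest of the 6 libraries for 40.8% of them, and 21.0% were at or under 0.5 of the mean of the other 5. By length alone, genes of 8000 bases or more had a median of -0.15 (n = 1267), siNC was lowest for 26.8%, and 12.3% were at or under that level. Genes under 4000 bases had a median of 0.03 (n = 8004), siNC was lowest for 14.1%, and 6.26% were at or under that level. By GC content alone, genes under 42% had a median of -0.18 (n = 3534), with siNC lowest for 29.9%. NUP155, the other long pore gene poor in GC, and NUP93, which is long but richer in GC, had log2 fold changes of -0.02 and 0.17.

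With offsets for length and GC content the log2 fold change in siNC against the other 5 was -1.44 for RANBP2, -1.54 for TPR and -1.30 for GLE1. Across the 32 genes, Spearman's rho with the siNC fold change was -0.01 for transcript length and 0.22 for GC content, as a description over genes that share the same libraries, and over 14293 genes it was -0.15 and 0.24. The part of length and GC content in the low values was not tested further.

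**Figure D4:**
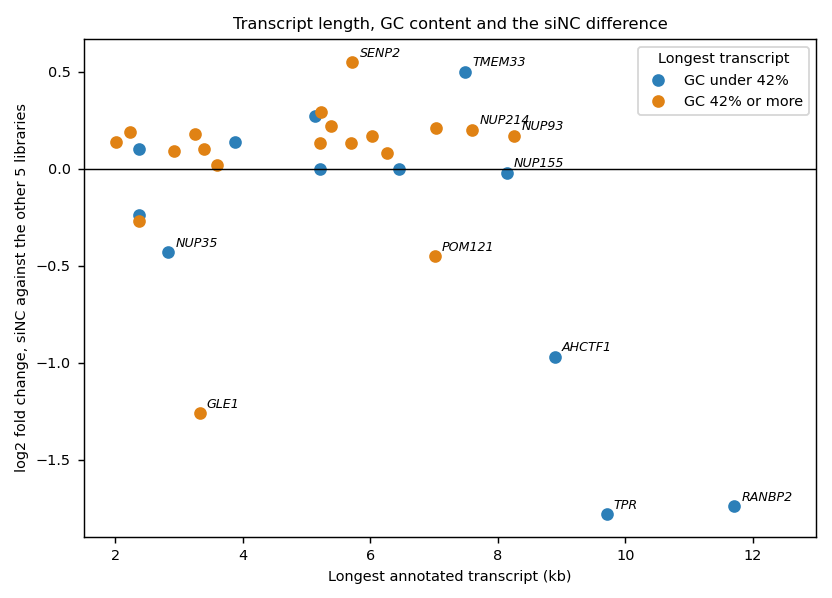
Log2 fold change in siNC against the other 5 libraries (y axis) by the length of the longest annotated transcript in kb (x axis) for 31 pore genes, coloured by the GC content of that transcript; NUP210 is left out. RANBP2, TPR and AHCTF1 are long and low in GC and low in siNC, NUP155 is long and at -0.02, and GLE1 is short and at -1.26.

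Some of these genes share sequence or exons with others, and the strand setting of the counting is not given in the sources used here. RANBP2 has near-identical copies, RGPD1 to RGPD6 and RGPD8, between which reads may be split. Their summed level was 67.2, 32.9, 44.05 and 41.3 CPM in the siRIPK2 libraries, 31.9 CPM in siNC and 45.1 CPM in WT. The sum was thus lowest in siNC, by a small margin below siRIPK2_2. Of the 7 copies, 4 were lowest in siNC and 3 in siRIPK2_2, beside 17.6% and 17.3% of all genes. Because reads may be split with RANBP2, these counts are not separate from its values. Some copies were low, such as RGPD1 at 1.31 to 2.11 CPM. The median log2 fold change of the 7 copies in siNC against the other 5 was -0.52. POM121C, a copy of POM121, was at 91.9, 61.3, 91.8 and 77.8 CPM in the siRIPK2 libraries, 51.6 CPM in siNC and 62.2 CPM in WT, and was lowest in siNC like POM121. DDX19A, a copy of DDX19B, was at 57.8 to 77.5 CPM in siRIPK2, 69.0 CPM in siNC and 63.3 CPM in WT. Exons of 7 pore genes overlap another listed gene: NUP88, DDX19B, NUP43, NUP188, NUP62, NUP98 and TPR. The neighbour of TPR, PRG4, was at 0.0664 to 0.361 CPM.

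Whether knockdown of RIPK2, a kinase that acts below the NOD receptors, went with a change in pore genes was asked against WT, a contrast that the choice of genes did not use. No pore gene passed the test. Of the 32 genes, 0 passed the adjusted p of 0.05 in edgeR, where no gene of the 14306 did (0.0%), and 0 had an unadjusted p under 0.05 in either direction, against 0.664% of all genes higher and 0.419% lower. DESeq2 called 9 genes (0.0629%) and 0 pore genes. Without NUP210 the log2 fold changes lay between -0.32 for SENP2 and 0.54 for POM121 (SE 0.334, unadjusted p = 0.148 in edgeR). Their standard errors ran from 0.277 to 0.547. RIPK2 itself, at a log2 fold change of -3.11, did not pass the adjusted p in edgeR. Even large changes could therefore be missed with these libraries, and the absence of calls does not show that pore genes were unchanged.

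RANBP2 averaged 139 ± 16.4 CPM in siRIPK2 (SD, n = 4) and was at 115 CPM in WT, a log2 fold change of 0.28 (SE 0.296, unadjusted p = 0.378, adjusted p = 1.0 in edgeR). TPR averaged 183 ± 27.2 CPM in siRIPK2 (SD, n = 4), against 165 CPM in WT, a log2 fold change of 0.15. GLE1 and AHCTF1 had log2 fold changes of -0.11 and 0.14. The 4 genes that were low in siNC were therefore at about the WT level in the siRIPK2 libraries. The median over the 32 genes was 0.11, with 25 positive (the barely detected NUP210 among them) and 7 negative, beside 0.01 over all genes.

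All 4 siRIPK2 libraries were above WT for 5 pore genes, RANBP2, NUP133, NUP153, POM121 and TMEM33, beside 11.5% of all genes. They were all below WT for 2, GLE1 and SENP2, beside 12.8% of all genes. These counts are close to the background. For GLE1 the gap was small, 64.5 ± 3.65 CPM in siRIPK2 (SD, n = 4) against 69.7 CPM in WT.

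The contrast of siRIPK2 to siNC shares the siRIPK2 libraries with the contrast to WT. It also rests on the same siNC library as siNC against the other 5, of which 4 are the siRIPK2 libraries. That the same 4 genes stood out is thus largely the same difference seen again, with no separate support. In edgeR 0 of 32 pore genes and no gene of the table passed the adjusted p (0.0%). Without adjustment, 2 of the 30 pore genes other than RANBP2 and TPR were higher in siRIPK2 (GLE1 and AHCTF1), beside 3.56% of all genes, and 0 were lower, beside 1.21%. DESeq2 called 74 genes (0.517%), among them GLE1 as the 1 of these 30. The log2 fold changes were 1.79 for RANBP2, 1.81 for TPR, 1.24 for GLE1 (SE 0.306) and 0.99 for AHCTF1 (SE 0.374), all given as descriptions. The median over the 32 genes was -0.11, beside 0.02 over all genes, so the complex as a whole did not follow these 4.

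Among the siRIPK2 libraries themselves, siRIPK2_2 was the one with low pore genes, and genes that work with the pore were often lowest there too. Leaving out NUP210, which had 2 counts in siRIPK2_2 and in WT, it held the lowest level of 15 of 31 pore genes, beside 17.3% of all genes. It also held the lowest level of 38 of 81 genes in the lists of transport, envelope and SUMO genes and copies described further on, among them 4 of 7 exportins, 4 of 7 genes of the Ran cycle and 7 of 14 genes of the lamina and envelope. The 15 pore genes came from every module: NUP88, AAAS, DDX19B and RAE1; NUP107, NUP85 and NUP37; NUP93, NUP155, NUP188 and NUP205; NUP54 and NUP98; NUP50; and NDC1. The median deviation of the pore genes from their mean over the 6 libraries, on the log2(CPM + 1) scale, was -0.16 in siRIPK2_2, 0.107, 0.098 and 0.099 in the other 3 siRIPK2 libraries, 0.101 in siNC and -0.059 in WT, and over all genes it lay between 0.006 and 0.019. The largest gaps were those of NDC1, at 35.8 CPM, and NUP93, at 61.7 CPM.

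Cell cycle genes were also low in siRIPK2_2. For 7 of 8 proliferation markers, a list chosen after the values were seen (MKI67, TOP2A, CCNB1, CDK1, CCNA2, BUB1, PLK1 and AURKB), siRIPK2_2 was the lowest library. Their summed level was 1836, 818, 1313 and 1752 CPM in the siRIPK2 libraries, 1406 CPM in siNC and 1401 CPM in WT. Their part in the low pore genes was not tested.

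**Figure D5:**
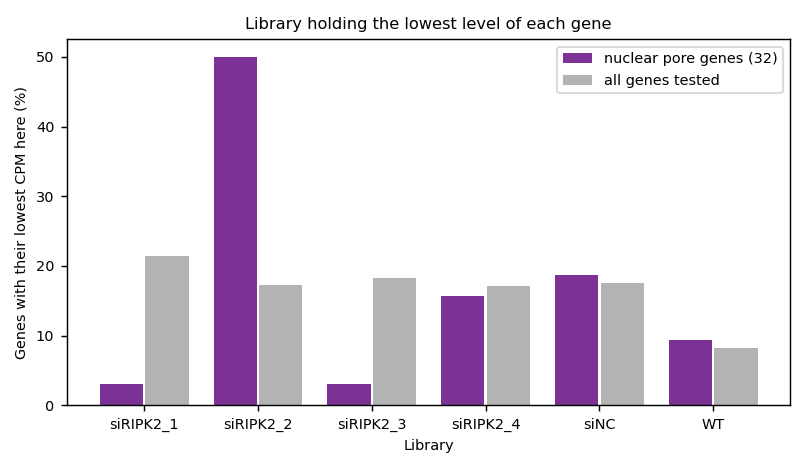
Percent of genes (y axis, from 0) whose lowest CPM lies in each library (x axis), for the 32 pore genes and for all genes tested. siRIPK2_2 holds the lowest level of 16 pore genes (15 without NUP210, which has few counts), against 17.3% of all genes, and siNC holds that of 6, close to the 17.6% of all genes.

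Genes that work with the pore gave a similar picture. None of 17 importins, 7 exportins, 7 genes of the Ran cycle, 17 genes of messenger RNA export, 14 genes of the lamina and envelope, 8 partners in the SUMO pathway, 4 other nucleoporins and 7 RANBP2 copies had an unadjusted p under 0.05 in siRIPK2 against WT. KPNB1, importin beta, had the lowest p among importins there, at a log2 fold change of -0.53 (unadjusted p = 0.209 in edgeR), followed by IPO5 at 0.29. The lowest p in the other lists belonged to XPO5 at 0.44 and XPO4 at 0.45, RAN at 0.34 and RANGAP1 at 0.39, DDX39B at 0.40 and NCBP2 at 0.29, SUN1 at 0.22 and LEMD2 at 0.49, SUMO2 at 0.14 and SENP1 at -0.16, POM121C at 0.38 and DDX19A at 0.09, and RGPD5 at 0.10 and RGPD6 at 0.08.

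In siNC against the other 5 libraries, 1 gene in each of 3 of these lists was lower at an unadjusted p under 0.05 in edgeR, and none was higher. That is 3 of 81 genes (3.70%), no more than the 4.63% of all genes, and the 3 are given as values. THOC2, a subunit of the THO complex that loads export factors on messenger RNA, had 55.9, 48.6, 47.3 and 60.1 CPM in the siRIPK2 libraries, 25.5 CPM in siNC and 45.3 CPM in WT (log2 fold change -1.01, unadjusted p = 0.00696 in edgeR). SYNE2, a giant nesprin of the outer nuclear membrane, had 117, 88.7, 62.6 and 69.1 CPM in the siRIPK2 libraries, 34.7 CPM in siNC and 98.5 CPM in WT (log2 fold change -1.33, unadjusted p = 0.00904 in edgeR). Both were lowest in siNC, below every other library. KPNA5, an importin alpha, had 14.02, 12.5, 8.73 and 7.51 CPM in the siRIPK2 libraries, 4.89 CPM in siNC and 8.41 CPM in WT (log2 fold change -1.06, unadjusted p = 0.0439 in edgeR).

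Other genes with the lowest p in that comparison did not reach that level. They included KPNA3 at -0.49, CSE1L at -0.62 and XPOT at 0.24, RANBP3 at -0.45 and RAN at 0.31, MCM3AP at -0.31, SYNE1 at -0.34, SENP1 at 0.53, POM121C at -0.58 and NUP42 at 0.24, and RGPD5 at -0.52 and RGPD6 at -0.50. Of the 7 genes of the Ran cycle, which RANBP2 serves at the filaments, 0 were at or under 0.5 of the mean of the other 5 in siNC. The share over all genes was 7.21%, so a count of 0 among 7 genes does not set them apart.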

How the data were processed

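RNA from 6 libraries of U118 cells was sequenced after poly(A) enrichment and random priming, per the labels' protocols. The authors deposited raw counts per Ensembl gene ID. Per the submitters' processing notes the tools were FastQC, Trimmomatic, HISAT2 and bedtools, on GRCh38. The sources used here do not give their versions, the annotation release or the strand setting. Of 20263 IDs, 19837 had a symbol and 20224 were found in GENCODE release 29. Groups came from the labels, and total counts ranged from 33540619 to 45309423. Each pair of libraries differed beyond sampling noise (chi-square of 77.1 to 223.6 per degree of freedom).

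The quasi-likelihood test of edgeR 4.0.16 (R 4.3.3) was run after TMM scaling and filterByExpr (minimum count 10), with Benjamini-Hochberg adjustment over 14306 genes at 0.05; the procedure was tested on simulated data. A fit of 3 groups has 3 residual degrees of freedom, all from siRIPK2, so the lone controls are assumed to vary alike. A fit of siNC against the other 5 has 4. Alternatives were DESeq2 1.42.0, voom in limma 3.58.1, other size factors, filters, offsets for length and GC content, and libraries left out. TPM used summed exon lengths. The genes and lists were chosen with earlier results of these data known. Genes named in full were, per module, the largest positive and negative log2 fold changes in siNC against the other 5, with RANBP2 and TPR, and in each further list with a mean of at least 5 CPM the 2 lowest p in siRIPK2 against WT and in siNC against the other 5. Genes named beyond this (GLE1, NUP133, NUP153, TMEM33, NDC1 and others) were chosen after their values were seen. RefSeq supplied promoter windows on GRCh38.p14, which hold no entry used here for 4 of the genes. No column of per-sample values was left unused. A gene that the naming rule selects in a further list is not reported here.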

Additional observations from a re-analysis of the deposited data

Results flagged for a closer look

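RAE1, the messenger RNA export factor that pairs with NUP98, had 58.3, 47.48, 60.5 and 58.3 CPM in siRIPK2_1 to siRIPK2_4, 63.7 CPM in siNC and 55.9 CPM in WT. Its level in siRIPK2_2 stood apart from the other 3 siRIPK2 libraries: the gap to the nearest was 0.831 of the range, just over Dixon's critical value for 4 values. The 32 pore genes were each examined in this way, and chance flags about 1 in 20 groups, so 1 such gene among 32 is no more than chance gives.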

How the results depend on the processing

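In siRIPK2 against WT, edgeR without a filter on low counts called 1 gene, limma-voom 1 and DESeq2 9, against 0 in the reported fit, and none was a pore gene. DESeq2 called 74 genes in siRIPK2 against siNC (69 higher) and 145 in siNC against the other 5 (136 lower). It put 3 pore genes past the threshold in each, against 0 in edgeR: GLE1, and RANBP2 and TPR, whose siNC values chose them and count as no call; the cause was not tested. Leaving out 1 library at a time gave 0 to 2 called genes in siNC against the other 5 (2 without siRIPK2_3) and 0 pore genes. Of the values of single pore genes under the alternatives, 1027 stayed on the same side of the threshold and within their spread. Another 20 stayed on the same side but moved by more than their spread. The remaining 6 crossed the threshold (those of the same 3 genes in DESeq2). Among all these values of single pore genes the sign turned in 33, from 15 pairs of a gene and a comparison. All had reported log2 fold changes of 0.14 or less in size and none was past the threshold. Values that round to 0 were not counted. siNC stayed the lowest library for 6 or 7 pore genes, RANBP2 and TPR among them, beside 16.3% to 21.7% of all genes. The count for siRIPK2_2 used an alternative set chosen after seeing the data. It was 12 with a mean of at least 5 CPM, beside 17.4% of all genes, and 15 to 17 otherwise, beside 17.1% to 21.3%. No paired analysis was possible because siNC and WT have 1 library each and their labels carry no replicate number. Each control is 1 library, so an effect of the control siRNA and a trait of that library cannot be told apart.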
